A study of Bos taurus with 12 samples.

Results

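Myoblast-only peaks were regions enriched for N6-methyladenosine (m6A) in proliferating bovine myoblasts (GM) that had no counterpart in the peak list of differentiated myotubes (DM). They were chosen by position alone: a GM peak belonged here when no base of its exon blocks was covered by an exon block of any DM peak on the same chromosome and the same annotated strand. This held for 2909 of 19739 GM peaks, which is 14.7% of the list, and these 2909 peaks lay in 2347 host genes. In the other direction, 5966 of 20790 DM peaks had no GM counterpart. The cells were primary myoblasts isolated from a back muscle, the longissimus dorsi, of newborn cattle of the Qinchuan breed. GM cells were taken at 80% confluence in medium with 20% fetal bovine serum, and DM cells after 4 days in medium with 2% horse serum, without any further agent or genetic change in either group. Each group had 3 m6A immunoprecipitation (IP) libraries and 3 untreated input libraries of the same kind of fragmented poly(A) RNA, 12 samples in all. The methods speak of the cells of 1 animal, so p-values here measure the spread between cultures or preparations and not between animals.

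The m6A mark is placed on messenger RNA by a writer complex built around METTL3 and METTL14, can be removed by the demethylases FTO and ALKBH5, and is read by proteins such as those of the YTHDF family, which act on the stability and translation of the RNA. In mammalian mRNA it is known to be frequent around the stop codon and in the 3' untranslated region (UTR). In the muscle lineage, myoblasts leave the cell cycle before they fuse and build sarcomeres, so that transcripts of the cell cycle and of the contractile apparatus change in opposite directions.

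The peak lists were 1 per group and held no value per library, so a peak's fold enrichment (IP over input) and p-value had no replicate check. A peak absent from the DM list was one not called there. Whether it carried less m6A was not measured here, since the enrichment at its bases in DM was not analysed. The study made its own comparison of m6A between the groups. It is cited below only from its list of largest decreases, for POLD1 and NOTCH3. No comparison of the members with its full list of differential peaks is given here. By an estimate from FPKM, the input libraries differed little in depth: the step of 1 read in lowly expressed genes placed them between 0.901 and 1.02 of the first GM library. Each ratio rested on 8 to 17 agreeing genes of 85 to 105 compared. It does not cover the IP libraries. The study reports clean reads for every library. Among the IP libraries they were fewest in the first GM library and most in the second DM library. The part of such differences in the peak lists was not tested. Desmin (DES), a muscle gene, was high in both groups, at 453 ± 9.86 FPKM (SD, n = 3) in GM and 489 ± 4.28 in DM. The differentiation markers MYOG and MYMK were already expressed in GM, at 197 and 41.1 FPKM on average, against 243 and 47.3 in DM. Other muscle genes differed more: CKM averaged 10.2 FPKM in GM and 42.5 in DM, and MYOZ2 37.2 and 145. MYOD1 went the other way, from 61.6 to 24.8 FPKM. The satellite cell factor PAX7 averaged 1.08 FPKM in GM and 0.0624 in DM, and the early myogenic factor MYF5 averaged 11.8 and 2.25. The summed markers of leukocytes reached at most 1.84 FPKM in GM and 2.01 in DM, those of endothelium 1.1 and 2.0, and those of adipocytes 2.90 and 3.28. The summed fibroblast markers lay between 16805 and 17096 FPKM in GM and between 17773 and 18911 FPKM in DM, those of smooth muscle and pericytes between 2675 and 3161 and between 2279 and 2545, and those of Schwann and neural cells between 77.8 and 81.1 and between 68.5 and 72.

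One group of members has to be set apart before the results. For 205 of the 2909 members (7.05%), the DM list did hold a peak that shared at least 1 base with the member, but annotated to a gene on the opposite strand. The DM peak covered all exon bases of the member in 138 of these 205, and its fold enrichment was within 1.5-fold of the GM value in 107. At none of the 205 did the GM list hold a second peak on that other strand. The member of lowest p was of this kind: a GM peak of 3911 nt over 8 exon blocks, assigned to EMILIN2, an extracellular matrix glycoprotein (chromosome 24, 37076794 to 37135870, ARS-UCD1.2), with a fold enrichment of 5.91 and a log10 p of -1580. The DM list gave 3792 of those bases to a peak on the small RNA gene RF00026 of the opposite strand, with a fold enrichment of 5.01. Likewise, 1975 nt of BAZ1B, a chromatin remodeller subunit, had a GM fold enrichment of 4.94, and the DM list placed a peak of 6.93 there on RF00100. A GM peak on the microRNA gene bta-mir-11996 (fold enrichment 5.87) lay under a DM peak on INHBA (7.95), which encodes an activin subunit. RANBP2, a nuclear pore protein, had 4375 nt at a fold enrichment of 6.47 against 6.29 for a DM peak on ENSBTAG00000054181. Of the 31 members with a log10 p under -100, 30 had such a DM peak on the other strand. Without the 205, 2704 members remained in 2195 host genes, which is 13.7% of GM peaks, and several of the values below are also given for them.

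**Figure D1:**
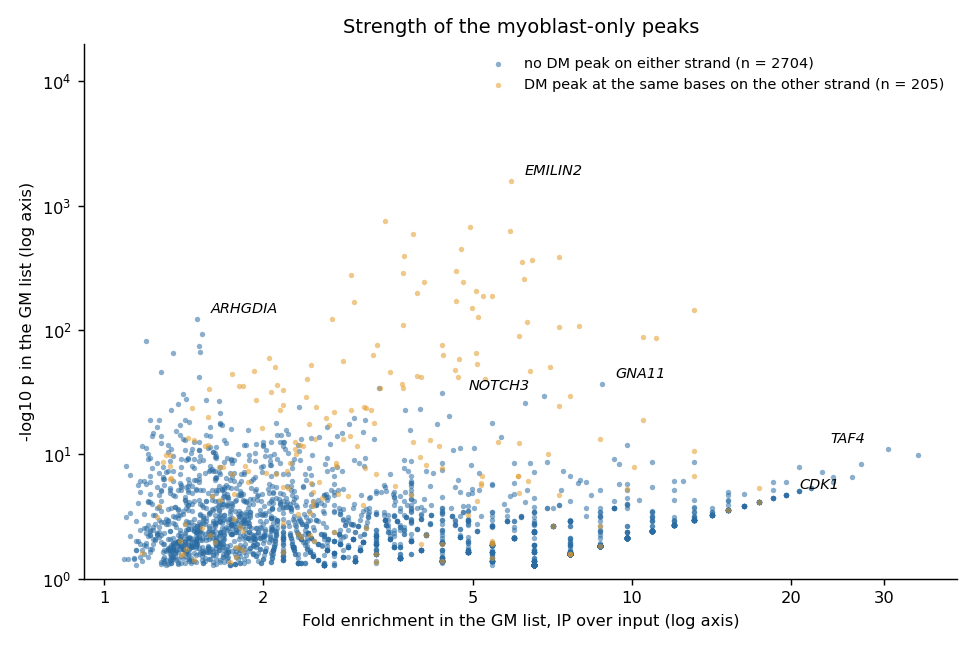
Fold enrichment (x axis, log) against -log10 p (y axis, log) of each myoblast-only peak in the GM list. Blue points are the 2704 members with no DM peak on either strand. Orange points are the 205 that share at least 1 base with a DM peak on the other strand. Nearly all points above 100 on the y axis are orange, the exception being ARHGDIA, and the blue points form columns at repeated values of fold enrichment.

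Most members were short and of modest significance. Their median length over exons was 177 nt, against 389 nt for the 16830 GM peaks that overlapped a DM peak, and their median log10 p was -2.24 against -15.0. Fold enrichment did not separate them in the same way, with a median of 3.33 for members and 3.27 for overlapping peaks. A single exon block made up 64.7% of the members and 53.8% of the overlapping peaks. A false discovery rate (FDR) under 0.05 was reached by 1876 members (64.5%) and by 94.7% of the overlapping peaks. Among all GM peaks at that FDR, members were 10.5%. With a fold enrichment of at least 2 added, 1219 members were left, and 756 had an FDR under 0.001. For the 2704 members with no DM peak on either strand, the median length was 151 nt, the median log10 p -2.14 and the median fold enrichment 3.42. Of these 2704, 1689 (62.5%) had an FDR under 0.05, 1070 also had a fold enrichment of at least 2, and 597 had an FDR under 0.001. Short and weak peaks were not particular to the myoblast list. The 5966 DM peaks with no GM peak had a median length of 209 nt and a median log10 p of -2.60. Of them, 73.7% had an FDR under 0.05.

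The share of GM peaks without a DM counterpart fell steadily with strength. It was 51.8% (95% Wilson interval 49.7 to 53.8, counting error only) of the 2332 GM peaks with a -log10 p between 1.3 and 2, 18.8% between 3 and 5, and 3.90% between 10 and 30. Above 100 it was 1.08%, and 0.0350% once the other strand was taken into account, which was 1 peak of 2858. The host gene's expression followed the same order. Members made up 40.2% (37.3 to 43.2) of the GM peaks on genes with a mean GM input under 0.1 FPKM, 18.7% at 0.5 to 2 FPKM, and 6.90% above 50 FPKM. Binned by fold enrichment, the share was lowest at 3 to 5, with 8.77%, and higher at both ends, with 26.9% under 1.5 and 20.2% from 5 to 10.

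**Figure D2:**
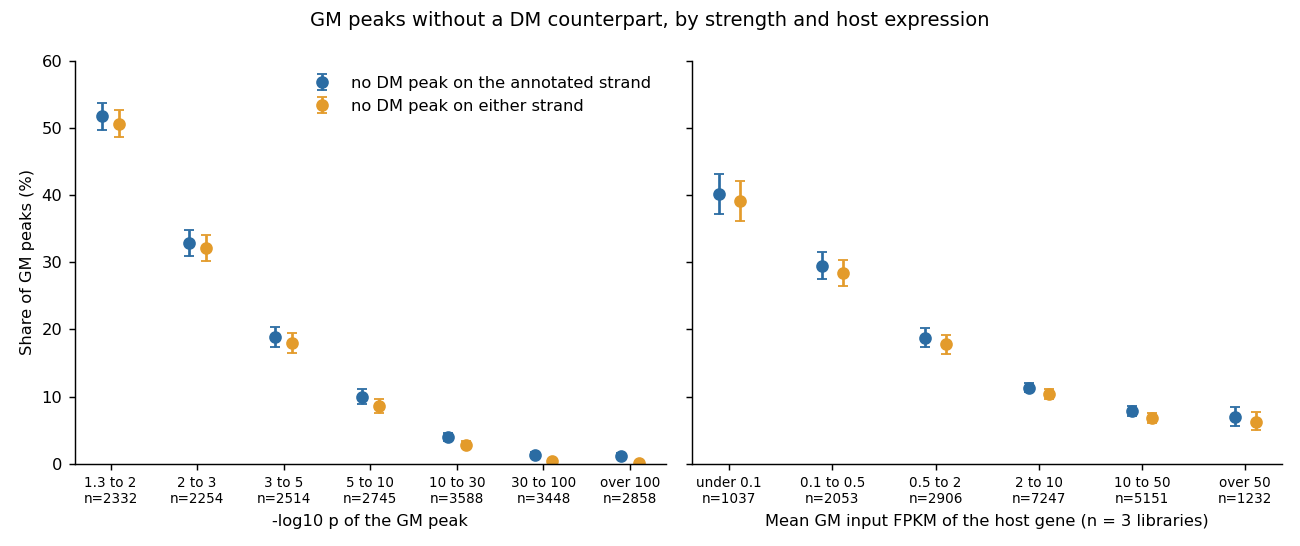
Share of GM peaks (y axis, %) with no DM peak on the annotated strand (blue) or on either strand (orange), by -log10 p of the GM peak (left) and by mean GM input FPKM of the host gene (right), with 95% Wilson intervals. The share falls from 51.8% to 1.08% from the weakest to the strongest peaks and from 40.2% to 6.90% from the lowest to the highest expressed hosts.

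Many of the high fold enrichments were the same number. The pair of a fold enrichment of 6.53 and a log10 p of -1.30 was carried by 242 members (8.32%), 7.62 with -1.57 by 153, 8.71 with -1.85 by 98, 9.80 with -2.12 by 59 and 10.9 with -2.41 by 54. In all, 51.1% of the members shared both values with another member, against 18.3% of the overlapping GM peaks with another of their own kind. A fold enrichment of 6.53 at the highest p among these pairs therefore stood beside one of 6.81 on NOTCH3 with a log10 p of -29.6, so the fold enrichment alone did not rank the members.

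Within their genes, members lay less often in the 3' UTR. The deposited label, 1 per peak, was 3' UTR for 28.1% of the members (26.5 to 29.7) and for 45.2% (44.4 to 45.9) of the overlapping GM peaks. Exons outside the UTRs held 52.1% (50.3 to 54.0) against 39.4% (38.7 to 40.1), and the 5' UTR 19.8% (18.4 to 21.3) against 15.4% (14.9 to 16.0). For the 2704 members with no DM peak on either strand the shares were 27.7%, 52.6% and 19.7%. These intervals treat peaks as independent, which peaks of 1 gene are not. At an FDR under 0.05 the 3' UTR held 29.7% of the members and 45.9% of the overlapping peaks. Seen from the label, 9.71% of all GM peaks in 3' UTRs were members, against 18.6% of those in exons and 18.1% of those in 5' UTRs. Of the 1517 members in exons, 58.7% were in internal exons, 19.1% in the first and 14.9% in the last exon of several, and 7.25% in single-exon genes. In overlapping peaks the first exon held 15.4% and the last 17.4%. Members in the 5' UTR had a median fold enrichment of 4.36, those in the 3' UTR 3.81 and those in exons 2.90. By chromosome the share of members ran from 9.33% of the GM peaks on chromosome 12 to 19.0% on chromosome 25.

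**Figure D3:**
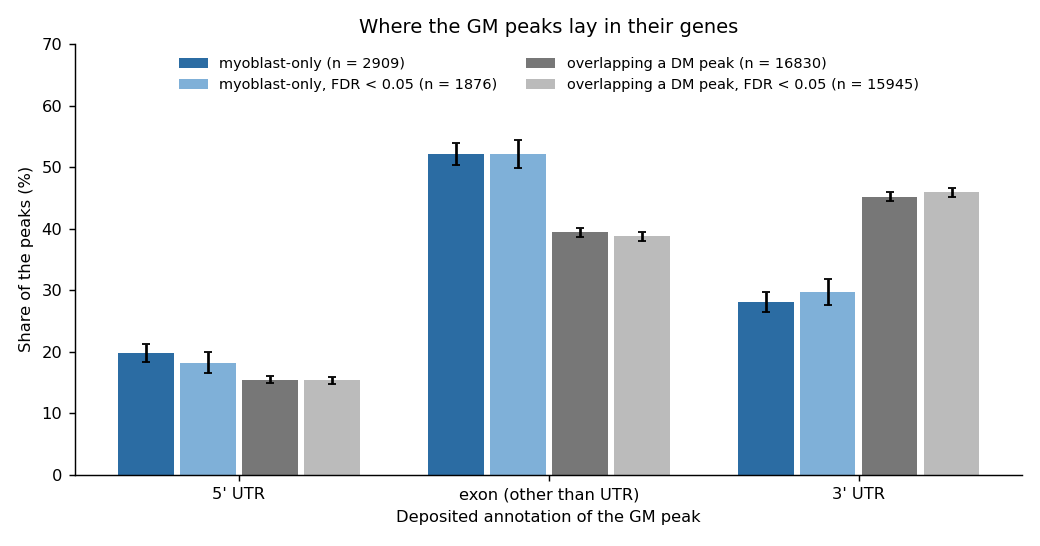
Share of peaks (y axis, %) labelled 5' UTR, exon or 3' UTR for myoblast-only peaks (blue) and GM peaks that overlap a DM peak (grey), each for all deposited peaks and for those with an FDR under 0.05, with 95% Wilson intervals. In both the full and the restricted sets the 3' UTR share of myoblast-only peaks lies below that of overlapping peaks (28.1% against 45.2%, and 29.7% against 45.9%) and the exon share above it.

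Most host genes had a DM peak annotated to them at another place, counted at any FDR. On NOTCH3, for example, no DM peak reached an FDR under 0.05. Of the 2347 hosts, 1641 (69.9%) carried at least 1 DM peak elsewhere and 706 (30.1%) carried none. Hosts without any DM peak were expressed at a low level, with a median GM input of 0.211 FPKM, against 2.65 FPKM for hosts with one. A total of 1390 hosts held both a member and a GM peak that overlapped a DM peak. In these genes the member had the higher fold enrichment in 379 (27.3%) and the lower p in 127 (9.14%). For members with no DM peak on either strand it was 351 (26.3%) and 95 (7.12%) of 1334 hosts. The distance from a member to the nearest DM peak of its strand had a median of 3879 nt, with quartiles of 268 and 30044 nt. It was at most 100 nt for 378 members (13%), and in 229 of these the DM peak overlapped another GM peak, so that the member stood beside a region found in both lists. Most genes had a single member (1896 hosts), 363 had 2, 67 had 3, 19 had 4 and 2 had 5.

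The rule has no strength threshold, and its limit is a shared base. HIST1H2BB, a histone gene of a multigene family in which reads can be shared, had a member 3 nt from a DM peak (fold enrichment 7.62, log10 FDR -0.885). The member on PTRHD1 lay 6 nt away (2.36, with a DM peak on the other strand) and that on TCTN1, a ciliary protein, 23 nt away (3.63). Just outside, peaks on CACNA1H (1.68), FAM83H (3.92) and ENSBTAG00000027770 (2.26) shared 1 base with a DM peak each. In all, 201 GM peaks shared at most 10 bases with a DM peak, while 2 members lay within 10 bases of one.

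Host gene expression was compared between the input libraries. These libraries also served as the background of the peak calls, so the comparison is not independent of the choice of members. FPKM values, which scale fragments by transcript length and library depth, were tested as log2(FPKM + 1) with limma, a gene being called at a Benjamini-Hochberg adjusted p under 0.05 and a fold change over 1.5. Of 1496 hosts tested, 119 (7.95%) were lower and 78 (5.21%) higher in DM, against 6.88% and 4.89% of all 12302 genes tested. These shares were near the background, and the medians in log2 fold change were -0.03 over hosts and -0.05 over all genes. With FPKM rescaled to an equal sum in every library (TPM), 119 hosts (7.95%) were lower and 137 (9.16%) higher, against 6.25% and 7.80% of all genes, and the median over all genes moved to 0.06. Without the hosts of other-strand members, 114 were lower and 69 higher of 1371. The 255 tested hosts without any DM peak had 32 (12.5%) lower and 14 (5.49%) higher, and the 1241 with a DM peak had 87 (7.01%) lower and 64 (5.16%) higher. Seen from the peaks, members were 16.1% (13.9 to 18.6) of the GM peaks on genes lower in DM, 10.9% (10.4 to 11.4) on tested genes not called and 9.20% (7.55 to 11.2) on genes higher in DM. On genes below the expression filter they were 33.9%. At an FDR under 0.05 these were 13.4%, 8.51%, 7.40% and 23.4%. In bulk RNA, fewer cells that express a gene and less of its RNA per cell cannot be told apart.

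The genes of G2/M phase and mitosis carried 28 members on 17 genes, which was 29.2% (21.0 to 38.9) of the 96 GM peaks on this list, beside 14.7% of all GM peaks. At an FDR under 0.05 it was 23 of 91, or 25.3%, beside 10.5%. The list was chosen with earlier results of these data known, so these shares are a description. The interval treats peaks as independent, although several members shared a gene. No member of the list had a DM peak on the other strand. The fold enrichments were low, with a median of 1.82, against 3.02 for the list's GM peaks that overlapped a DM peak. Of the list's 65 tested genes, 64 were lower in DM, beside 6.88% of all genes tested. The median over the list was -1.85 in log2 fold change. All 17 host genes were among the 64, so their fall was that of the list and not particular to genes with a member. The summed input of the list was 675 to 750 FPKM in GM and 149 to 159 FPKM in DM. The part of this drop in the loss of peaks was not tested. The DM list still held a peak annotated to 15 of the 17 genes, the exceptions being CDK1 and KIF23. These DM peaks were counted by annotation and at any FDR, and whether each came from RNA of that gene was not tested.

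CDK1, the cyclin-dependent kinase that drives entry into mitosis, had the strongest of them by fold enrichment, a 656 nt peak in the 3' UTR (chromosome 28, 16581701 to 16582356) at 19.6 with a log10 FDR of -4.10. It was the only GM peak on the gene, and members on other genes, among them HFE, had the same fold enrichment and p. CDK1 measured 5.08, 5.72 and 4.63 FPKM in the GM libraries and 0.921, 1.31 and 0.807 FPKM in the DM libraries. The groups did not overlap, and the log2 fold change was -1.62 ± 0.11 (SE; limma adjusted p = 1.33e-05). KIF20A, a kinesin of the central spindle, had its member in the 3' UTR with a fold enrichment of 1.66 and a log10 FDR of -20.8 (chromosome 7, 49621150 to 49621418). Its input was 18.5, 17.9 and 16.3 FPKM in GM and 0.545, 0.968 and 0.537 FPKM in DM, and it fell by 3.47 ± 0.11 on the log2 scale (limma adjusted p = 2.8e-07), the largest fall of any host. The DM list still held 3 peaks annotated to KIF20A. That at 49613707 to 49622604 (log10 FDR -11.7) also covered a member in the 3' UTR of CDC23 on the other strand.

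UBE2C, the ubiquitin-conjugating enzyme of the anaphase-promoting complex, carried members of 2.98 and 4.90 in its 3' UTR, the second with a log10 FDR of -1.13 that missed an FDR of 0.05. Its input was 13, 12 and 13.8 FPKM in GM and 0.754, 0.909 and 0.565 FPKM in DM (log2 fold change -3.00 ± 0.09). The 2 DM peaks annotated to UBE2C, labelled 5' UTR, had log10 FDRs of -68.7 and -69.8. The 2 GM peaks of UBE2C that overlapped DM peaks had -63.0 and -63.5. Whether these peaks came from UBE2C RNA was not tested. ASPM, a spindle pole protein, carried 4 members in exons 19 and 20 of 29, with fold enrichments of 2.91, 1.82, 1.69 and 1.33. The longest was 750 nt with a log10 FDR of -16.6. The 2 GM peaks of ASPM that overlapped DM peaks had fold enrichments of 3.11 and 3.67, and the 4 DM peaks on the gene ranged from 5.32 to 8.52 with log10 FDRs no lower than -2.54. ASPM was at 4.94 ± 0.346 FPKM in GM and 0.156 ± 0.0388 in DM. KIF15, a spindle kinesin, also had 4 members, 2 of them at an FDR under 0.05, the strongest at 5.44 in the 3' UTR, and no GM peak that overlapped a DM peak. CCNF (3.04) encodes the cyclin of an SCF ubiquitin ligase, and HMMR (2.12) a microtubule-associated hyaluronan receptor.

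**Figure D4:**
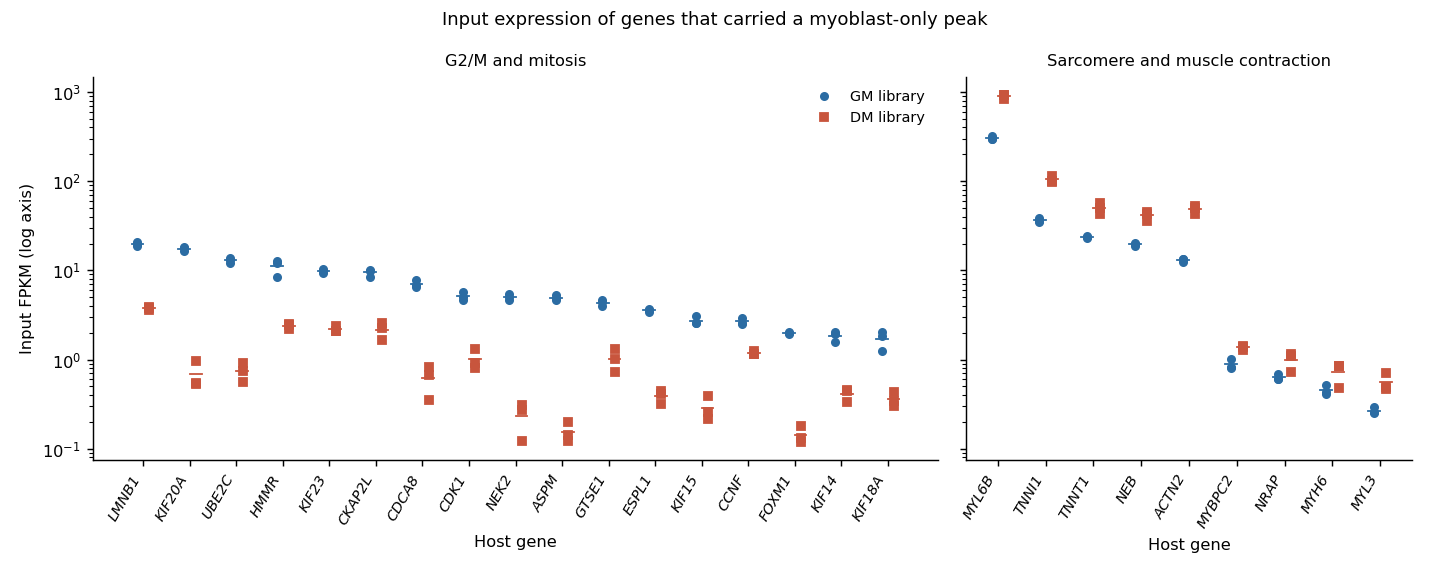
Input FPKM (y axis, log) of the 17 G2/M genes (left) and the 9 sarcomere genes (right) that carried a myoblast-only peak, each point a library (blue GM, red DM; 3 each) and each line a group mean. All 17 G2/M genes were called lower in DM by limma, and 5 sarcomere genes (MYL6B, TNNI1, TNNT1, NEB, ACTN2) higher. Of all genes tested, 6.88% were called lower and 4.89% higher.

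S phase and DNA replication genes had 13 members among 66 GM peaks (19.7%, 11.9 to 30.8), on 11 genes of which 7 of 10 tested were lower in DM. On the whole list 27 of 51 tested genes were lower, beside 6.88% of all genes tested. TICRR, a factor for replication origin firing, had the highest fold enrichment of the list at 9.44. GINS1, a subunit of the replicative helicase, had 3.27 at a log10 FDR of -0.858, which missed an FDR of 0.05, and POLD1, the catalytic subunit of DNA polymerase delta, had 2.63. The study lists a POLD1 peak with the same start as this member among its largest m6A decreases in DM. E2F7, a repressor of the cell cycle programme, had 3.73. Homologous recombination and Fanconi genes had 9 members among 44 GM peaks (20.5%, 11.2 to 34.5), 7 of them without a DM peak on either strand. Among them were XRCC2 (10.9), XRCC3 (8.71 and 7.62, neither at an FDR under 0.05) and the exonuclease EXO1 (2.72). Of the 8 hosts, 2 were lower in DM, as were 10 of the 28 tested genes on the whole list.

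Outside the lists, the hosts with the largest falls after KIF20A and UBE2C were also known proliferation genes. CDCA3, which takes part in the degradation of a mitotic inhibitor, had a 3' UTR member of 2.03 (log10 FDR -10.0) and no DM peak. It was at 8.02, 6.80 and 7.45 FPKM in GM and at 0.426, 0.519 and 0.267 FPKM in DM. SHCBP1 (member 1.71 in its last exon) went from 7.98 ± 0.601 to 0.575 ± 0.192 FPKM, and PRR11 (1.94) from 5.85 ± 0.818 to 0.242 ± 0.268 FPKM, with 1 DM library listed at 0. No DM peak was annotated to either gene.

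The largest rises in hosts were SFRP1, FGF18, ACTN2, AFAP1L1 and CELA3B. SFRP1, a secreted inhibitor of Wnt signalling, measured 0.717, 0.619 and 0.549 FPKM in GM and 6.57, 6.96 and 6.44 FPKM in DM (log2 fold change 2.23 ± 0.07, limma adjusted p = 3.31e-07). Its 5' UTR member had the repeated pair of 6.53 and -1.30 and a log10 FDR of -0.639, while 3 GM peaks in the 3' UTR overlapped DM peaks. FGF18, a fibroblast growth factor, rose from 0.292 ± 0.0309 to 3.69 ± 0.442 FPKM, and its member (13.1) had a DM peak on the other strand, as did that of AFAP1L1 (2.77). ACTN2, the alpha-actinin of the Z-disc, rose from 13.1 ± 0.613 to 48.6 ± 4.87 FPKM with members of 2.33 and 1.52 labelled 5' UTR. CELA3B, annotated as a protease of the elastase family, rose from 2.09 ± 0.143 to 8.10 ± 0.660 FPKM with a member of 1.54 that missed an FDR of 0.05 (log10 FDR -1.11).

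Sarcomere and contraction genes had 13 members among 108 GM peaks (12%, 7.17 to 19.5), and at an FDR under 0.05 it was 7 of 101 (6.93% beside 10.5%). The members lay on 9 genes, and 5 of the 8 tested were higher in DM. On the whole list 35 of 51 tested genes were higher and 1 was lower, beside 4.89% and 6.88% of all genes tested. MYL6B, a myosin light chain, had a member of 1.22 and no DM peak while its input rose from 299, 298 and 317 FPKM in GM to 918, 842 and 934 FPKM in DM (log2 fold change 1.56 ± 0.06). TNNI1, slow troponin I, had a 60 nt member of 1.67 in the 3' UTR (log10 FDR -16.3) and rose from 36.4 ± 1.79 to 104 ± 8.99 FPKM. MYL3, the ventricular and slow myosin light chain, had the highest fold enrichment of the list, 24.0 in a 1018 nt 3' UTR peak with a log10 FDR of -5.31, on a gene at 0.267 ± 0.0226 FPKM in GM and 0.557 ± 0.127 in DM that was below the expression filter. NRAP, an anchoring protein of myofibrils, carried 4 members between 1.78 and 2.33, none at an FDR under 0.05. The member on MYH6 (2.50), whose reads can be shared with other myosin heavy chain genes, had a DM peak on the other strand.

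Myogenic regulators had 3 members among 43 GM peaks (6.98%, 2.40 to 18.6). PAX3, the paired box factor of muscle progenitors, had 5.44 in its 5' UTR on a gene at 0.431 FPKM in GM and 0.242 FPKM in DM. ID4, an inhibitor of basic helix-loop-helix factors, had 4.90 (log10 FDR -2.47), and EYA1, a cofactor of SIX-family proteins, had 1.88 at a log10 FDR of -1.16, which missed an FDR of 0.05. MYOZ2, TWIST1, KLF5 and MYOD1 carried no member. The list of m6A writers, erasers and readers had 1 member among 33 GM peaks, on the reader YTHDF2. It was a 90 nt peak in the 5' UTR beside 2 GM peaks that overlapped DM peaks, with a fold enrichment of 6.53 and a log10 FDR of -0.711 that missed an FDR of 0.05. YTHDF2 was at 20.0 ± 1.01 FPKM in GM and 20.9 ± 0.703 in DM, and 0 of the 22 tested genes of that list were called by limma, although 10 had an unadjusted p under 0.05 and 6 an adjusted p under 0.05 with a smaller fold change.

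Notch signalling had 6 members among 34 GM peaks (17.6%, 8.35 to 33.5), and 4 of these were on the receptor NOTCH3. They lay in the last exon and the 3' UTR of NOTCH3 on chromosome 7. The most distal, 7950177 to 7950476, had a fold enrichment of 6.81 and a log10 FDR of -28.6, and the others had 3.07, 2.07 and 1.42. Another GM peak between them, at 2.86, overlapped DM peaks. The 3 DM peaks on NOTCH3 had fold enrichments of 2.98, 1.80 and 1.77, none of them at an FDR under 0.05 (log10 FDR -1.16 or higher). The study lists the member at 7950177 to 7950476 among its largest m6A decreases in DM for genes that also changed in mRNA. NOTCH3 measured 2.10, 1.99 and 2.29 FPKM in GM and 0.731, 0.921 and 0.911 FPKM in DM, and it fell by 0.75 ± 0.08 on the log2 scale (limma adjusted p = 0.000163). The ligand JAG2 had a member of 3.92, and NUMB, an antagonist of Notch, one of 1.35 on a gene at 19.8 and 20.7 FPKM.

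**Figure D5:**
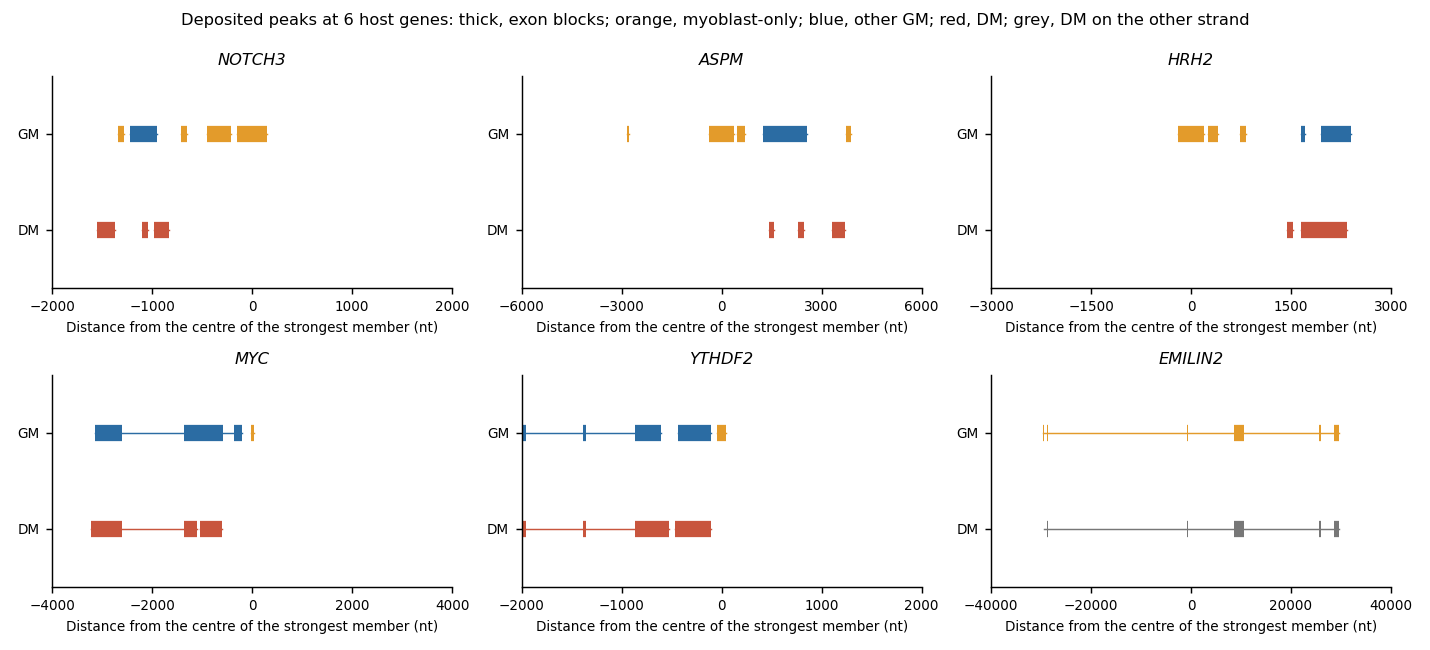
Exon blocks of the deposited peaks on 6 host genes by distance in nt from the centre of the member with the lowest p (x axis), GM above and DM below, with myoblast-only peaks in orange, other GM peaks in blue, DM peaks of the gene in red and DM peaks on the opposite strand in grey (drawn for EMILIN2 only); peaks beyond the window are cut off. NOTCH3 has 4 orange peaks, MYC and YTHDF2 each have a short orange peak past the end of regions marked in both lists, and for EMILIN2 the orange GM peak and the grey DM peak cover nearly the same blocks.

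The other signalling lists had shares around that of all GM peaks. TGF-beta and BMP genes had 10 members among 71 GM peaks (14.1%, 7.83 to 24.0), 7 of them in 5' UTRs. The receptor TGFBR2 had the highest at 8.71 but did not reach an FDR of 0.05 (log10 FDR -1.14), and the ligand TGFB3 had 3.68 with a DM peak on the other strand. ACVR2B, an activin receptor, had 6.53 at a log10 FDR of -0.639, which also missed it, and INHBB, an activin subunit, 4.36. Wnt genes had 11 of 93 (11.8%, 6.73 to 20.0), led by the receptor FZD5 at 8.71 (log10 FDR -2.86). Growth factor genes had 8 of 76 (10.5%, 5.43 to 19.4). Among these IGFBP2, a binding protein of insulin-like growth factors, had a 149 nt member in its 3' UTR (chromosome 2, 104648869 to 104649017) at 3.32 with a log10 FDR of -33.0, the only GM peak on the gene, and no DM peak. IGFBP2 was abundant, at 106, 104 and 130 FPKM in GM and 60.9, 71.1 and 58.1 FPKM in DM (log2 fold change -0.83 ± 0.10, limma adjusted p = 0.00039). FGF1 had 6.40 (log10 FDR -7.73), and FGF5 had 4.36 at a log10 FDR of -0.711.

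Immediate early and KLF factors had 3 members among 66 GM peaks (4.55%, 1.56 to 12.5). MYC, a driver of cell growth, had a 61 nt member of 3.81 (log10 FDR -3.09) beside a GM peak of 1460 nt that overlapped DM peaks, on a gene at 35.8 ± 2.40 FPKM in GM and 32.5 ± 4.37 in DM. MYCN had 8.71, and FOSB had 7.62 at a log10 FDR of -0.996, which missed an FDR of 0.05. Sterol synthesis and SREBP genes had 0 members among 28 GM peaks, with an upper Wilson limit of 12.1%. Extracellular matrix genes had 14 among 127 (11%, 6.68 to 17.7), of which 10 were in exons. MMP14, a membrane-anchored collagenase, had 9.80 in the 5' UTR (log10 FDR -11.2), on a gene at 206 ± 7.83 FPKM in GM and 266 ± 8.75 in DM. The basement membrane genes AGRN (7.62) and COL15A1 (7.08) and the anchoring collagen COL7A1 (6.53) followed, but the members on AGRN (log10 FDR -0.885) and COL7A1 (-0.796) missed an FDR of 0.05.

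The marker lists of other cell types were short, with 7 to 13 genes each, and held few GM peaks in number. GM peaks lay on 10 of 13 fibroblast, 6 of 7 smooth muscle and pericyte, 4 of 8 endothelial and 4 of 7 Schwann and neural markers. They lay on 2 of 8 adipocyte and 2 of 8 leukocyte markers. Fibroblast markers had 1 member among 19 (OSR1, 9.80), adipocyte markers 0 of 3 (upper Wilson limit 56.1%), endothelial markers 2 of 6 (VWF 6.53, CLDN5 4.72), smooth muscle and pericyte markers 1 of 13 (CSPG4, 1.63) and leukocyte markers 2 of 4, both on CD14. Schwann and neural markers had 5 of 8, with 4 on MBP and 1 on GFAP. The members on VWF, CSPG4 and GFAP, 1 of those on CD14 and 2 of those on MBP missed an FDR of 0.05. VWF, CLDN5, CD14 and GFAP were all below 0.5 FPKM on average in both groups.

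By fold enrichment, the leading members with an FDR under 0.05 on genes expressed in both groups (mean of at least 0.5 FPKM) were on TAF4, IMPACT, HFE, CDK1, ENSBTAG00000048353, ENSBTAG00000051765, PDK2, SCAF8, TSSK3 and MOV10. Repeated pairs were among these too. HFE, CDK1, ENSBTAG00000048353 and ENSBTAG00000051765 all had 19.6 with a log10 p of -4.74, and TSSK3 and MOV10 both had 17.4 with -4.15. TAF4, a subunit of the general transcription factor TFIID, had a 540 nt member in exon 1 of 16 (chromosome 13, 55098081 to 55098620) at 30.5 with a log10 FDR of -10.2. The gene was at 3.16, 3.12 and 3.21 FPKM in GM and 3.21, 3.50 and 3.18 FPKM in DM, so the groups overlapped. IMPACT, a regulator of the translation kinase GCN2, had 21.8 in its 5' UTR and stood at 9.22 ± 0.261 and 8.89 ± 0.242 FPKM. HFE, the haemochromatosis protein of iron uptake, had 19.6, and PDK2, a kinase that inhibits pyruvate dehydrogenase, 18.5, at 4.37 and 3.99 FPKM and at 5.47 and 5.97 FPKM respectively. All of these genes except CDK1 also carried a DM peak, and SCAF8 (17.4) had one on the other strand at the member. MOV10, an RNA helicase, had 17.4 and was the only one besides CDK1 called lower in DM, from 15.6 ± 0.421 to 8.94 ± 0.378 FPKM.

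Under the same limits on FDR and expression, where the host had no DM peak at all, the leading members after CDK1 were HOPX, RECK, CCDC61, ZNF579, DUSP13, ENKUR, MFN1, SKA1 and PCYT1A, from 17.4 down to 13.1. HOPX had the same pair as MOV10. RECK and CCDC61 both had 15.2 with a log10 p of -3.56, a pair carried by 43 GM peaks. PCYT1A had 13.1 with -2.98, carried by 62. HOPX, a homeodomain protein without DNA binding of its own, fell from 4.28 ± 0.259 to 1.82 ± 0.268 FPKM. SKA1, a kinetochore protein, fell from 2.52 ± 0.164 to 0.613 ± 0.121 FPKM. RECK, a membrane inhibitor of matrix metalloproteinases, measured 5.56, 5.54 and 4.46 FPKM in GM and 9.68, 10.5 and 9.45 FPKM in DM, and it rose by 0.82 ± 0.09 on the log2 scale (limma adjusted p = 0.000144) while its 5' UTR peak (15.2) was found in GM. MFN1, a mitochondrial fusion protein, stood at 20.1 and 19.9 FPKM. The members on ZNF579 and ENKUR had DM peaks on the other strand.

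Ranked by p instead, an order chosen after the values were seen, the members without a DM peak on either strand began with ARHGDIA (fold enrichment 1.5, log10 p -122), RPS3 (1.53), ITGB1 (1.2), GNAI2 (1.51), SLC6A17 (1.52) and RTN4 (1.35). These were abundant transcripts with small enrichment, from 64.6 FPKM for SLC6A17 to 1194 FPKM for RPS3, a ribosomal protein, in GM. With a fold enrichment of at least 2, the lowest p-values were on GNA11 (8.77, log10 FDR -35.7), IGFBP2, RHOQ (4.36), NOTCH3 and MSLN (6.26). GNA11 encodes a G protein alpha subunit and had its member in the 5' UTR (chromosome 7, 20712274 to 20713444). The gene was at 18.6, 20.2 and 19.8 FPKM in GM and 20.1, 18.4 and 19.4 FPKM in DM, with overlapping groups. RHOQ, a small GTPase, had its member 147 nt from a DM peak. MSLN, which encodes mesothelin, had no DM peak and stood at 6.79 ± 0.381 and 6.0 ± 0.766 FPKM.

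The 2 genes with 5 members each were of different kinds. ZNF536, a zinc finger repressor of neuronal differentiation, had 5 exon members between 3.54 and 13.1, 3 of them at an FDR under 0.05, and no DM peak, at 0.138 ± 0.0273 FPKM in GM and 0.0324 ± 0.0180 in DM. HRH2, the histamine H2 receptor, had 3 members in the 3' UTR (15.2, 2.79 and 1.84) and 2 in exon 1 of 2 (3.81 and 3.16), among 3 GM peaks that overlapped DM peaks, at 0.933 ± 0.122 and 0.545 ± 0.0694 FPKM.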

How the data were processed

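RNA from 3 GM and 3 DM preparations was fragmented, immunoprecipitated with an m6A antibody and sequenced beside its input. Per the labels, processing used cutadapt, fastp, HISAT2, StringTie, HOMER and ChIPseeker on ARS-UCD1.2; the methods name Trimmomatic and HISAT2, and exomePeak for the peaks of the groups. The authors deposited 1 peak list per group, pooled over replicates, with fold enrichment as a linear ratio of IP over input, a p-value per peak, and log10 p and log10 FDR given as scores, and FPKM of each input library. The methods name more than one peak caller, so which settings made the lists is not given in the sources used here. Libraries were strand-specific, and the strand used here is that of the annotated host gene.

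Members were found from exon blocks with at least 1 shared base (Python 3.11.15, pandas 2.3.3). The overlap code was tested against brute force on simulated peaks. FPKM was tested as log2(FPKM + 1) on genes with a mean of at least 0.5 over the 6 libraries by limma 3.58.1 (R 4.3.3) with a variance trend. Fold changes on that scale understate those of low genes. Depth in reads is unknown from FPKM, and no interval on FPKM is given beyond the SD of 3 libraries. Shares have 95% Wilson intervals, which cover counting error only. No hypothesis test was run on peaks. Named members were the 10 highest fold enrichments among members with an FDR under 0.05 on genes at 0.5 FPKM or more in both groups, the same for hosts without a DM peak, the 5 largest rises and falls of called hosts, up to 4 members per gene list, the genes the study followed up, the genes with most members and those at the limit of the rule; a few more are marked as chosen after their values were seen. The members and gene lists were chosen with earlier results of these data known. Of the 2347 hosts, 287 have no symbol in the lists and are given by identifier. Sequences and motifs were not analysed here.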

Additional observations from a re-analysis of the deposited data

How the results depend on the processing

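The count of myoblast-only peaks stayed within 1.5 times 2909 when at least 50% of a GM peak had to be shared, by whole spans, on either strand, with gaps of 100 nt closed or against DM peaks with an FDR under 0.05 (2531 to 4046). By construction it was lower with GM limits: 1876 at an FDR under 0.05, 1219 with a fold enrichment of at least 2 added and 756 at an FDR under 0.001. The 5' UTR share moved to 18.2% at an FDR under 0.05. With the fold enrichment limit added the exon share was 48.6% and the 3' UTR share 31.3%, and at an FDR under 0.001 they were 46.8% and 33.6%, beside 36.0% and 48.1% of overlapping peaks at that limit, so the direction held. At an FDR under 0.05 the median fold enrichment was 2.61, the median log10 p -3.08 and the share of hosts without a DM peak 26.6%. With strand ignored, an alternative chosen after seeing the data for all but the count, the median log10 p was -2.14.

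Hosts lower and higher in DM numbered 119 and 78. A fold change over 2 gave 49 (3.28%) and 26 (1.74%), beside 2.21% and 1.89% of all genes. A pseudocount of 0.1 gave 173 (11.6%) and 125 (8.36%), beside 9.27% and 6.57%, and TPM gave 137 higher, beside 7.80% of all genes; the cause was not tested. Leaving out 1 library gave 115 to 122 lower and 74 to 85 higher. The replicate block gave 121 and 78. Same-numbered libraries deviated from their group means with correlations of -0.08, -0.12 and -0.21, so the numbers were not taken as pairing, and no library correlated best with its own number. Of 1657 alternative values for 112 named hosts, 1618 kept their side of the threshold, 23 lost the call and 16 gained it, and none that was called changed sign. The planned motif search was not run, since no genome of the build was at hand. Peaks of the pooled lists have no replicate values, so the depth behind any single member is unknown. The study also reports peak numbers per replicate, which varied within each group and were not used here.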
